A study of Rattus norvegicus with 19 samples.

Results

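Among 13 radiation-induced mammary carcinomas of female rats, 3 carry a sample code with a letter after the R (carcinomas 11, 12 and 13) and 10 carry a code with a number there (carcinomas 1 to 10). The labels do not say what the letters or numbers stand for, whether a cohort, a cage, an operator or a time. All 19 samples of the study, 13 carcinomas and 6 normal glands, came from F1 rats of a cross between Sprague-Dawley and Copenhagen parents. Rats received either no irradiation or a whole-body gamma dose of 4 Gy when 7 weeks old, the carcinomas are labelled as radiation-induced, and the labels do not say which glands came from irradiated rats. Age at sampling, tumour histology and whether 2 samples came from 1 rat are not stated, so the p-values below measure the spread between these samples. Gland 6 carries a letter code and glands 1 to 5 carry numbers.

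A mammary carcinoma is a mixture of malignant epithelium, which expresses keratins and the adhesion molecule gene Epcam, with fibroblasts, vessels, blood and immune cells. In whole-tissue RNA, fewer cells of a type and less RNA per cell cannot be told apart. Probes for Epcam and Krt8 were well above background on all 13 carcinoma arrays, in both code series. The Epcam probe was so on all 6 normal gland arrays too. It thus shows epithelium and cannot tell carcinoma from gland.

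Values are log2 intensities minus the 75th percentile of the same array, called levels here, so 0 is the 75th percentile and a difference of 1 is 2-fold. All 3 letter-coded carcinomas and gland 6 lay on slide 3, together with carcinomas 8 and 10, which carry numbers, while the other 8 number-coded carcinomas lay on slides 1 and 2. The 75th percentile itself was 1128 to 1428 on letter-coded and 485 to 1313 on number-coded carcinoma arrays (2-sided exact permutation test, p = 0.126, adjusted over 4 array measures 0.168). Spots well above background made up 72.0 to 80.1% on letter-coded and 62.3 to 84.2% on number-coded arrays (exact permutation p = 0.647). The mean correlation between letter-coded arrays exceeded that of letter-coded with number-coded ones by 0.023 (exact permutation p = 0.028, adjusted 0.056). Pairs of letter-coded arrays correlated at 0.930 to 0.949, letter with number at 0.893 to 0.943, and number with number at 0.896 to 0.961. The level of the spike-in controls, which are added in fixed amounts before labelling, was -0.14 to 0.50 on letter-coded arrays and 1.06 to 1.93 on number-coded arrays, with no overlap (exact permutation p = 0.0035, the smallest that 286 ways of choosing 3 of 13 can give, adjusted 0.014). The spike-in level thus moved with the code series, and the design cannot tell them apart. With it as a covariate, 0 genes passed in either direction by limma and 1715 were at an unadjusted p under 0.05.

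Letter-coded carcinomas had lower levels of far more genes than they had higher levels. Of 13525 genes tested with limma, 625 were higher (4.62%), 1822 were lower (13.5%) and 2447 differed in either direction (18.1%). With quantile normalization the counts were 730 higher and 1246 lower. The median difference of all genes was -0.19, and it was -0.06 with quantile normalization, so the excess of falls is read against a downward shift of the whole distribution. Differences of at least 2-fold numbered 323 among the higher and 1336 among the lower genes, and differences of at least 4-fold 58 and 339. In 427 of the higher and 1205 of the lower genes, all 3 letter-coded carcinomas lay outside the range of all 10 number-coded ones. Among 13456 genes measured on each carcinoma array, that was so for 500 upward (3.72%) and 1334 downward (9.91%).

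Falls were most frequent among dim probes and rises among bright ones. Genes were ranked by their mean level over the 13 carcinomas and divided into 4 equal bins. In the dimmest bin 1.27% were higher and 17.9% were lower. In the brightest bin 7.25% were higher and 9.38% were lower. Among the 9169 genes well above background on all 13 carcinoma arrays, 564 were higher and 1134 lower.

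The slide bears on all of these counts. With slide as a block, which leaves the contrast to carcinomas 11 to 13 against carcinomas 8 and 10, 100 genes were higher and 369 lower, and 91 and 329 of these were among the genes called without the block. Within slide 3 alone, 0 genes passed limma's adjusted threshold in either direction and 2858 were at an unadjusted p under 0.05. The slide 3 contrast uses 5 of the 13 arrays that chose these genes, all 3 letter-coded ones included, so a shared sign is no separate support: 11719 of all 13525 genes had the same sign in both. Within slide 3 the median difference was 0.93 over the higher and -1.28 over the lower genes, against 1.04 and -1.38 over all 13 carcinomas. Carcinomas 8 and 10 differed from the other number-coded carcinomas by a median of 0.13 over the higher genes and -0.12 over the lower genes. Single genes differed by more. Among the 12 largest rises given below it was 1.24 for Mcc, 1.10 for Ankrd61 and 1.03 for Krt80. For Spdya (-0.66), Rnase12 (-0.08) and Kcns2 (-0.70) it was negative. Within slide 3 the letter minus number difference was 2.70 for Mcc and 2.59 for Krt80, against 3.69 and 3.41 over all 13 carcinomas. The counts were also smaller without any 1 letter-coded carcinoma. Without carcinoma 12, 270 genes were higher and 994 lower, without carcinoma 13, 299 and 1044, and without carcinoma 11, 508 and 1141. Leaving 1 out also shrinks the smaller group, which by itself lowers such counts, so what each carcinoma adds was not tested.

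The largest rises with no overlap were in genes of varied function. Mcc, a gene named for its mutation in colorectal cancer, was at -0.71, 0.40 and 0.45 in carcinomas 11, 12 and 13, and at -4.96 to -2.33 (median -3.60) in number-coded carcinomas, a difference of 3.69 ± 0.50 (SE, n = 3 and 10, adjusted p = 0.000414). Krt80, a keratin gene of differentiated epithelium, was at -0.58, 0.64 and 0.62 against -4.17 to -1.86 (median -3.26), a difference of 3.41 ± 0.49. Evc2, which encodes a protein of the primary cilium that takes part in Hedgehog signalling, was at -1.70, -0.47 and -0.50 against -4.75 to -3.04 (median -4.10), a difference of 3.03 ± 0.40. In each of these genes carcinoma 11 was the lowest of the letter-coded samples and still above every number-coded one.

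Enzyme and transporter genes made up much of the rest of this group. Cyp4a8, a fatty acid hydroxylase gene of the cytochrome P450 family, was at 4.03, 4.47 and 5.43 against 1.23 to 2.90 (difference 2.80 ± 0.32), but its other probe, near background, gave -0.98 and did not pass. Srd5a2, which encodes a steroid 5-alpha-reductase, was at -1.07, -0.74 and -0.81 against -3.80 to -2.39 (difference 2.35 ± 0.26, adjusted p = 0.000193). The zinc transporter gene Slc39a14 differed by 2.59 ± 0.57, while its other probe gave -0.01. The amino acid transporter gene Slc7a12 differed by 2.39 ± 0.33. Spdya, which encodes an activator of cyclin-dependent kinases, had the largest difference of this group, 3.99 ± 0.71, with levels of -4.42, -1.92 and -2.14 against -8.45 to -5.55; it was well above background on 1 of 10 number-coded arrays. Rnase12 (3.10), Wwox (2.53), Ankrd61 (2.43) and Kcns2 (2.29) complete the 12. With slide as a block, 6 of these 12 passed (Spdya, Mcc, Evc2, Cyp4a8, Slc7a12 and Srd5a2). Rnase12 did not pass without carcinoma 12, nor Kcns2 without carcinoma 13, and neither passed with normexp background correction.

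**Figure D1:**
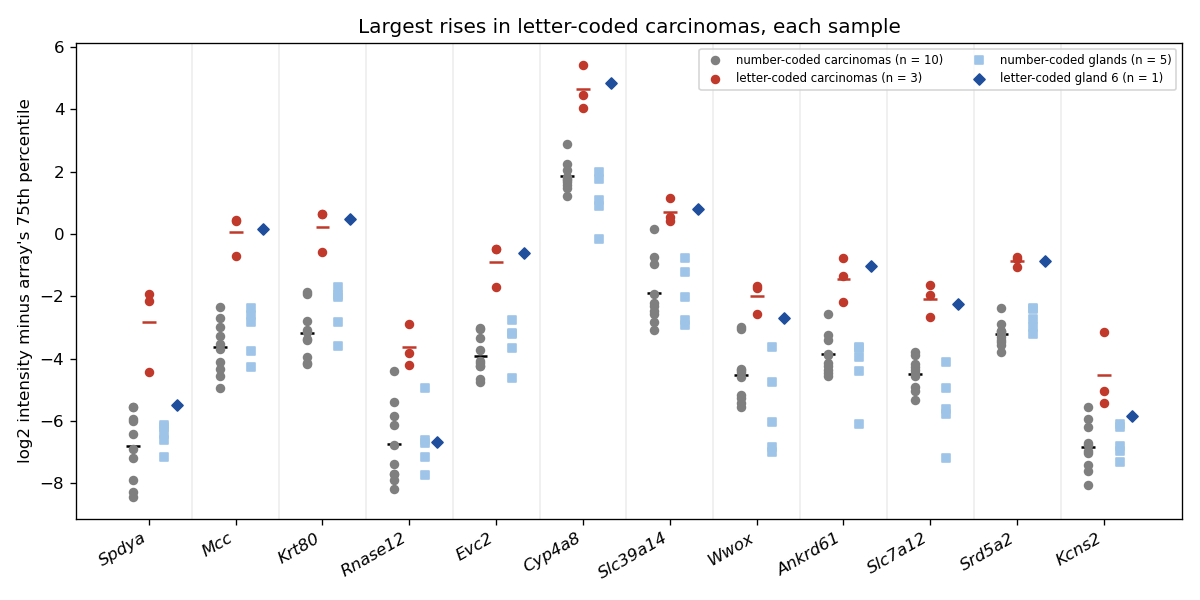
Level of the 12 genes with the largest non-overlapping rises, in log2 intensity minus the array's 75th percentile (y axis), with 1 point per sample: number-coded carcinomas grey, letter-coded carcinomas red, number-coded glands light blue, letter-coded gland 6 dark blue, and bars at the means of the carcinoma series. Red points lie above all grey points in each gene, and gland 6 lies above glands 1 to 5 in each gene but Rnase12.

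The letter-coded gland was on the same side for most of the higher genes. Gland 6 is a separate sample that took no part in choosing these genes, though it shares slide 3 with the letter-coded carcinomas. It lay above all of glands 1 to 5 for 420 of 623 higher genes with gland values (67.4%), against 23.6% of all genes. It lay below all of them for 701 of 1816 lower genes (38.6%), against 21.8% of all genes. The median gland difference was 0.85 over the higher genes and -0.41 over the lower genes. Across all genes, which are not independent replicates, the carcinoma difference and the gland difference had a Pearson correlation of 0.326. In a limma fit over all 19 arrays, 15 genes (0.111%) were higher and 2 (0.0148%) lower in gland 6 than in glands 1 to 5, and the difference between the carcinoma and gland differences passed for 0 genes in either direction.

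Mcc was at 0.15 in gland 6 and at -4.27 to -2.39 in glands 1 to 5. Krt80 was at 0.47 against -3.60 to -1.70, Evc2 at -0.61 against -4.62 to -2.76, and Cyp4a8 at 4.84 against -0.18 to 1.97. In these genes gland 6, a normal gland, lay within the range of the letter-coded carcinomas. A few genes known for other organs, singled out after their values were seen, were also higher in letter-coded carcinomas, with gland 6 outside the range of those carcinomas. Ins1, an insulin gene of pancreatic beta cells, was at -1.16, -0.76 and -0.47 in letter-coded carcinomas, at -3.79 to -1.95 in number-coded ones and at -1.77 in gland 6. Cym, the gene of the stomach protease chymosin, was at 2.86, 3.67 and 3.54 against 0.36 to 2.03, and at 4.74 in gland 6. Glra2, a glycine receptor subunit gene of the nervous system, was at 4.33, 5.19 and 5.07 against 1.92 to 3.60, and at 6.02 in gland 6. Gland 5, number-coded, was the highest of glands 1 to 5 for both Cym (3.44) and Glra2 (4.59).

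**Figure D2:**
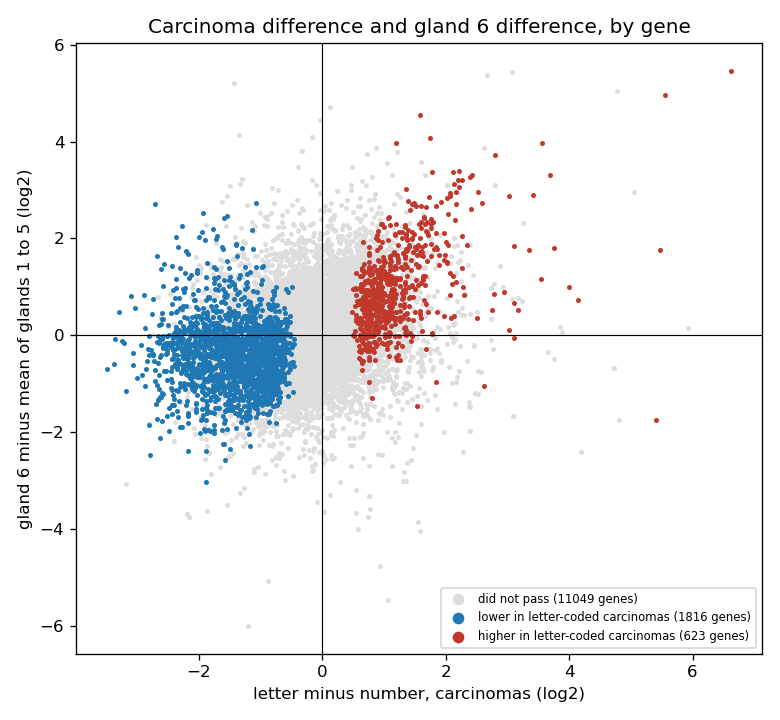
For each gene, the letter minus number difference in carcinomas (x axis, log2) against gland 6 minus the mean of glands 1 to 5 (y axis, log2), with 623 higher genes red, 1816 lower genes blue and the other genes grey. Most red points lie above 0 on the y axis (median 0.85), while blue points spread on both sides of it (median -0.41).

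Of the 12 largest falls with no overlap, gland 6 lay below all of glands 1 to 5 for 6, and of the 12 largest rises it lay above them for 11. Over all genes it lay below them for 21.8% and above them for 23.6%. For several falls a bound was taken, since the probe was well above background on all 10 number-coded and on 0 letter-coded arrays. Such bounds set the dim series at the higher of its own signal and the lowest signal that was well above background on each array. Tdrkh, a Tudor domain gene of the piRNA pathway, was at -7.94, -7.49 and -7.34 in carcinomas 11, 12 and 13. In number-coded carcinomas it was at -6.64 to -3.26 (median -5.05), so the means differed 6.99-fold. Tm4sf20, a tetraspanin-like gene, was 6.40-fold lower, and Dpys, the dihydropyrimidinase gene of pyrimidine breakdown, 6.00-fold. In each of these falls the bound equals the plain fold of the means, because no letter-coded signal lay under that lowest signal. In the other direction Krt33a, a hair keratin gene, was at least 3.60-fold higher, and the olfactory receptor gene Or13a27d at least 2.61-fold. All of these probes passed the filter on dim probes only through the brighter series, so they had to differ. With normexp background correction the log2 difference of Krt33a was 0.14 (adjusted p = 0.720) and that of Or13a27d 0.01 (adjusted p = 0.979), and neither passed with slide as a block (0.115 and 0.238), without carcinoma 12 or without carcinoma 13. Or13a27d did not pass without carcinoma 11 either.

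Cell surface and junction genes were among the falls. Cldn5, the tight junction claudin of endothelium, was at -6.99, -4.97 and -7.70 against -4.93 to -1.78 (median -3.31), a difference of -3.24 ± 0.64 (adjusted p = 0.00428). Carcinoma 12 lay just under the lowest number-coded sample for Cldn5, and the other 2 lay further down. Cd151, a tetraspanin that binds laminin-binding integrins, was at -2.61, -2.59 and -3.64 against -0.81 to 0.73 (median 0.08), a difference of -2.94 ± 0.30 (adjusted p = 0.000186). Slc2a8, a glucose transporter gene, fell by 3.17, and Grina by 2.70, from levels of 0.29 to 2.24 in number-coded to -1.63, -1.23 and -1.47 in letter-coded carcinomas. Fkbp10, a chaperone gene of collagen folding, differed by -2.83 ± 0.51, with -3.71, -4.15 and -4.10 against -3.23 to 0.13. Npepl1 (-2.93), Rhbdd2 (-2.87), Fam234a (-2.74) and Grwd1 (-2.69) were also among the 12. With slide as a block, 10 of the 12 passed, all but Cldn5 and Fam234a, and all 12 passed without each letter-coded carcinoma in turn. Tdrkh did not pass with normexp.

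**Figure D3:**
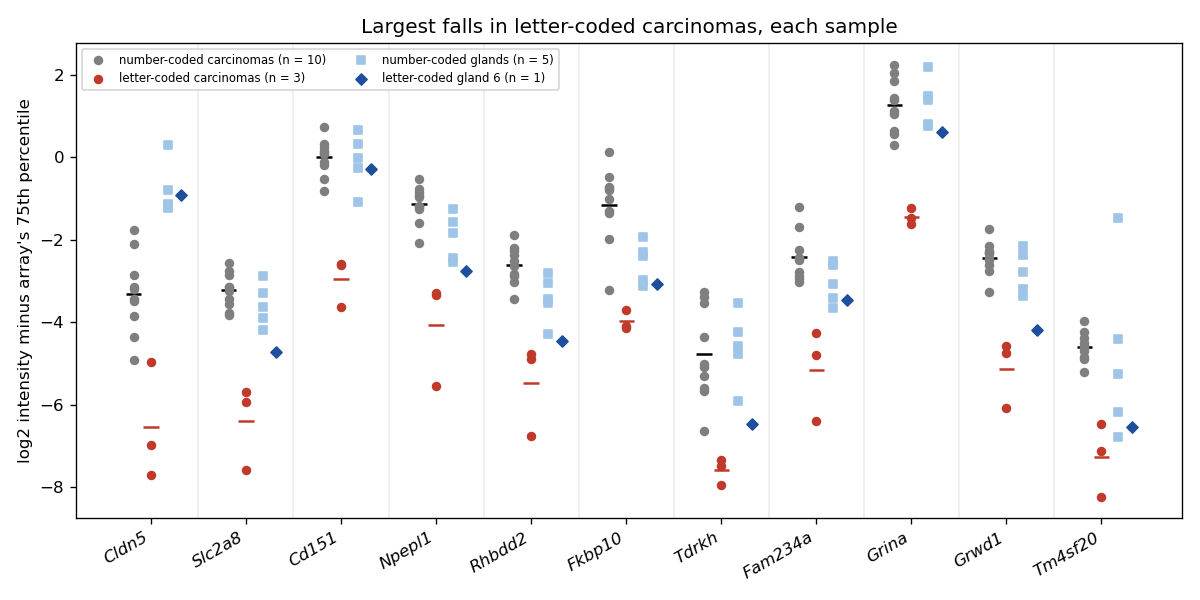
Level of 11 of the 12 genes with the largest non-overlapping falls, in log2 intensity minus the array's 75th percentile (y axis), with points and colours by code series and tissue and bars at the means of the carcinoma series. Red points lie below all grey points in each gene, and for Cldn5 gland 6 (-0.92) lies within the range of glands 1 to 5.

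Some genes of RNA splicing were higher and some lower. Splicing factors bind new transcripts or assemble into the spliceosome, and the CLK kinases phosphorylate the SR proteins among them. Of 34 splicing genes tested, 8 rose and 5 fell, where 4.62% of all genes were higher and 13.5% lower, so the share that fell was near that of all genes. The median difference was -0.03 against -0.19 over all genes. The risers were regulatory kinases and SR or hnRNP proteins with 1 spliceosome subunit: Pnisr, Clk1, Clk4, Sf3b1, Srsf6, Tra2a, Rbm39 and Hnrnph1. Clk1 was at 2.42, 2.56 and 3.48 against 0.39 to 2.12 (median 1.28), a difference of 1.52 ± 0.32 (adjusted p = 0.00654), and at 2.58 in gland 6 against 0.06 to 1.57 in glands 1 to 5. Pnisr was at -0.94, -0.14 and -0.34 against -3.06 to -1.14, a difference of 1.68 ± 0.31. Srsf6, named after its values were seen, was at 2.71, 2.62 and 2.33 against 1.30 to 2.01, a difference of 0.92 ± 0.18. All 3 letter-coded carcinomas were above every number-coded one in these genes.

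The 5 that fell were Sf3b4, Sf3a1, Sf3b3, Sf3b2 and Hnrnpm, so that 4 of them encode proteins of the spliceosome's SF3 complexes, of which Sf3b1 rose. Sf3b4 was at -3.55, -3.68 and -3.95 against -2.49 to -1.22 (median -1.77), a difference of -1.99 ± 0.24 (adjusted p = 0.000247). Sf3a1 differed by -0.98, and its other probe gave 0.12 and did not pass. Gland 6 lay above glands 1 to 5 for 15 of the 34 genes and below for 6, beside 23.6% and 21.8% of all genes. The number that rose was 7, 5 and 3 without carcinoma 11, 12 and 13, and the number that fell 4, 1 and 3. The number that fell was also 3 without carcinoma 5, 6 or 10. With slide as a block 1 rose and 1 fell.

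Subunits of other large complexes were found among both the higher and the lower genes, with shares of lower genes near the 13.5% of all genes. Oxidative phosphorylation, the respiratory chain and ATP synthase of mitochondria, had 5 genes higher and 6 lower of 40 (median -0.06). Atp5f1b, the beta subunit of ATP synthase, was at 0.47, 0.10 and -0.72 against 2.15 to 2.92 (median 2.48), a difference of -2.52 ± 0.23 (adjusted p = 0.000116). Gland 6 was at 0.96, just below the range of glands 1 to 5 (0.97 to 2.67). Ndufa5, a subunit of complex I, was at 5.01, 4.79 and 4.73 against 3.29 to 4.05, a difference of 1.19 ± 0.17. Cox7b (1.20) and Cox5a (-1.09), both subunits of cytochrome oxidase, passed in opposite directions.

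Of 38 cytosolic ribosomal protein genes, 3 were higher and 5 lower (median -0.01), close to the 4.62% and 13.5% of all genes. Rpl11 was at 7.56, 7.38 and 7.50 against 5.29 to 6.87 (difference 1.26 ± 0.30), and Rpl5 at 4.02, 3.66 and 3.98 against 4.46 to 5.49 (difference -1.09 ± 0.20), and no letter-coded value overlapped the number-coded range in either gene. Of 29 proteasome genes, 2 were higher and 5 lower. The core subunit gene Psma4 differed by 1.03 ± 0.17, and Psmd3 and Psmd14, both of the regulatory lid, by -1.55 ± 0.20 and -1.22 ± 0.25. With slide as a block, 1 oxidative phosphorylation gene was higher and 2 lower, 0 ribosomal protein genes passed in either direction, and 1 proteasome gene was higher and 1 lower. Without carcinoma 11, 12 and 13, the higher oxidative phosphorylation genes numbered 2, 1 and 5 and the lower ones 7, 3 and 2. The ribosomal protein genes that were lower numbered 4, 1 and 2, those that were higher 2, 2 and 1, and the proteasome genes that were lower 3 each time. The latter also numbered 3 without carcinoma 1, 4, 5, 6, 9 or 10.

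Red cell genes were lower in letter-coded carcinomas. Of 7 genes tested, 5 fell and 0 rose (median -2.02), where 13.5% of all genes fell: Slc4a1, the anion exchanger of the red cell membrane, the globin genes Hbb, Hbb-b1 and Hba-a1, and the membrane protein gene Epb42. Hbb was at 2.42, 1.63 and 3.95 against 3.49 to 6.00 (median 5.10), a difference of -2.26 ± 0.59 (adjusted p = 0.0187), so carcinoma 13 overlapped the number-coded range. Its other probe gave -2.81 and passed. Alas2, the erythroid enzyme of haem synthesis, differed by -1.93 and did not pass (adjusted p = 0.0533). Gland 6 was not low in these genes: the median gland difference was 0.89 and it lay below glands 1 to 5 for 0 of 7. Over all genes it lay below them for 21.8%. Without carcinoma 11 or without carcinoma 12, 0 of the 7 genes passed by limma, and 0 passed with slide as a block. With quantile normalization 3 fell.

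Genes of antigen presentation were lower or did not pass. MHC class I molecules display peptides cut by the immunoproteasome and pumped by the TAP transporter. Of 16 genes for this pathway, 6 fell and 0 rose (median -0.67): Tap1, RT1-CE10, Psmb8, RT1-CE16, RT1-CE5 and Tapbp. Tap1 was at -2.33, -2.45 and -2.49 against -1.23 to 0.21 (median -0.49), a difference of -1.95 ± 0.32 (adjusted p = 0.00151). It passed without each letter-coded carcinoma and with slide as a block (adjusted p = 0.0324), and it was -2.20 in gland 6, below glands 1 to 5. The number of the 16 that fell was 2, 3 and 2 without carcinoma 11, 12 and 13, 3 with normexp, 3 with quantile normalization, 2 with slide as a block and 3 without carcinoma 1, 4 or 6. Of 22 interferon response genes, 1 passed, Oasl (-2.17 ± 0.68, adjusted p = 0.0407), a smaller share than the 13.5% lower of all genes. Oasl did not pass without carcinoma 11, 12 or 13 (adjusted p = 0.123, 0.164 and 0.0601), nor without carcinoma 1, 2, 3, 4 or 10, nor with slide as a block (0.278) or quantile normalization (0.0658).

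Immune and stromal marker lists held 0 to 3 genes that passed, a share below or near the 13.5% lower of all genes. Of 20 T and NK cell genes, 3 fell, Cd8a (-2.43), Lck (-1.72) and Cd4; Lck, a kinase of the T cell receptor pathway, was at -5.26, -5.66 and -6.28 against -4.40 to -3.53. Of 21 macrophage genes, Mrc1 (-1.71) and Csf1r (-1.45) fell, and the other probe of Csf1r gave 0.54 and did not pass. Of 19 fibroblast and matrix genes, Fbn1 (-2.60) and Thy1 (-1.90) fell, with a list median of -1.31, and of 15 endothelial genes Cldn5 and Eng (-1.52). Without carcinoma 11 or without carcinoma 13, 1 T and NK cell gene and 0 macrophage genes passed. With quantile normalization 1 T and NK cell gene and 1 macrophage gene did, with normexp 1 macrophage gene, and 1 macrophage gene fell without carcinoma 2, 5, 7, 9 or 10. The lower fibroblast and matrix genes numbered 1 without carcinoma 13, 4 without carcinoma 9 and 1 with slide as a block, where 0 endothelial genes passed. In the mast cell list of 11 genes the median was -1.66 and 1 gene, Mcpt4 (-1.78), passed, but not with normexp or quantile normalization. The lists for B and plasma cells (10 genes), neutrophils (12) and skeletal muscle (16) had 0 genes past the threshold by limma, where the smallest unadjusted p of each belonged to Cd79b (-1.44), Camp (2.23) and Ckm (1.70). Some of these genes were near background: Lck was well above background on 2 of 3 letter-coded arrays, Cd8a on 1 and Mcpt4 on 0.

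Few epithelial markers passed. Of 23 luminal genes, 1 passed, Epcam, at 3.10, 3.21 and 3.37 against 3.49 to 4.27 (difference -0.73 ± 0.19, adjusted p = 0.0177). Epcam did not pass without carcinoma 11 or 12, with slide as a block (adjusted p = 0.140), with median centring (0.0546) or with quantile normalization (0.0516). Krt8 (-0.93 ± 0.53, adjusted p = 0.242) and Krt14 (0.34 ± 1.08, adjusted p = 0.859) did not pass. Of 16 basal and myoepithelial genes, the laminin chain gene Lamb3 (-1.55) and the hemidesmosome integrin gene Itgb4 (-1.29) fell, close to the 13.5% of all genes. Neither passed without carcinoma 11, without carcinoma 12, without carcinoma 13 or with slide as a block. The 23 milk genes had the highest list median, 1.33, 0 passed by limma, and number-coded carcinomas spread widely. Csn2, the beta-casein gene, was at 8.44, 6.69 and 5.82 in letter-coded carcinomas and anywhere from -8.59 to 9.10 in number-coded ones (median 4.23). Wap, the whey acidic protein gene, was at 4.39, 5.99 and 6.74 against -6.61 to 8.28.

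Hormone receptors and oncogenes gave no difference past the threshold. Esr1 (0.85 ± 0.68), the oestrogen receptor, Pgr (-0.03 ± 1.00), the progesterone receptor, and Erbb2 (0.12 ± 0.28) did not pass, and 0 of 28 receptor kinase and oncogene genes did by limma. In the list of oestrogen and progesterone response, 2 of 15 rose (13.3%, beside 4.62% of all genes), Tff3 and Igsf1 (1.06 ± 0.29). Of these 15, 0 rose without carcinoma 12 or without carcinoma 13. Of 16 p53 target genes, Polk rose (1.37 ± 0.25), and Sesn2 (-1.94 ± 0.31), Cdkn1a and Bax fell. In either direction 25% of the 16 passed, beside 18.1% of all genes (4.62% higher and 13.5% lower). Cdkn1a, the cell cycle inhibitor p21, was at 3.75, 3.94 and 2.76 against 3.90 to 5.11 (difference -0.97 ± 0.26), did not pass without carcinoma 13 (adjusted p = 0.144), and its other probe gave 0.54 and did not pass. The other probe of Polk gave -0.62 and did not pass. Of the 16, 0 were higher and 1, Sesn2, was lower with slide as a block.

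Metabolic genes past the threshold were mostly lower, as were 1822 of the 2447 past it over all genes. Of 23 cholesterol synthesis genes, 5 fell, among them Msmo1 (-1.42 ± 0.37), Fdps and Mvk, and Fdft1, squalene synthase, rose (0.85 ± 0.20); without carcinoma 12, 0 fell, and without carcinoma 13, 0 fell. Of 27 xenobiotic and glutathione enzyme genes, 6 fell, among them Gpx1, a peroxide-reducing enzyme, at 1.85, 3.70 and 2.02 against 3.39 to 5.47 (difference -1.88 ± 0.41); without carcinoma 13, 3 of the 27 fell. Of 24 hypoxia and glycolysis genes, 2 fell and 0 rose (median -0.26). That is 8.33%, a smaller share than the 13.5% lower of all genes. Aldoa, the aldolase of glycolysis, was at 1.40, 2.24 and 2.16 against 3.42 to 4.92, a difference of -2.11 ± 0.28 (adjusted p = 0.000362). Pgam1, the other of the 2, differed by -1.30 ± 0.34. In fatty acid synthesis, Scd2 (-2.17 ± 0.41) and Agpat2 (-1.94 ± 0.29) fell, 11.8% of the 17 tested, and 4 of 17 fell without carcinoma 11. In the fit with slide as a block, 0 cholesterol synthesis genes passed by limma and 1 xenobiotic and glutathione enzyme gene fell. Aldoa and Agpat2 passed with the block, and Gpx1 (adjusted p = 0.0681), Scd2 (0.0946) and Pgam1 did not. Pgam1 did not pass without carcinoma 11 either, nor Gpx1 without carcinoma 13.

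Stress, growth and developmental lists gave few genes each. Over all genes 13.5% were lower and 4.62% higher. The shares of cell cycle, HOX and immediate early genes that fell lay under that 13.5%. Of 14 chaperone genes, Bag3 (-1.43), Chordc1 (-1.39) and Hsp90ab1 fell and Hsp90aa1 rose (1.05), while its other probes gave -0.28 and 0.34. Hsp90aa1 did not pass without carcinoma 13, with normexp or with slide as a block, where Bag3 alone of the 14 passed. Of 22 cell cycle genes, the replication helicase genes Mcm6 (-2.43) and Mcm2 (-1.39) fell (9.09%). The number that fell was 7 without carcinoma 11, and 0 without carcinoma 12, without carcinoma 13 or with slide as a block. Of 23 HOX and developmental genes, Hoxb3 (-2.64 ± 0.40) and Hoxb8 (-1.78) fell (8.70%), with Hoxb3 well above background on 0 letter-coded arrays. Hoxb8 did not pass without carcinoma 12 or 13, with normexp or with slide as a block. Among 13 chromatin genes, Eed (-0.87), a Polycomb gene, and Mbd2 (-0.65), which binds methylated DNA, were just past the threshold (adjusted p = 0.0474 and 0.0431), and Ezh2 (-0.39 ± 0.36) did not pass. Neither Eed nor Mbd2 passed with normexp, median centring or slide as a block, or without carcinoma 4, 5, 9, 10, 11 or 12, and 1 of them passed without carcinoma 1, 2, 3, 6, 8 or 13 or with quantile normalization. Of 28 immediate early genes, Dusp2 (-1.53) and Egr3 (-1.43) fell (7.14%) and Fos (-0.40 ± 0.70) did not pass. Neither Dusp2 nor Egr3 passed without carcinoma 11 or with slide as a block, and 1 of them did without carcinoma 12.

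**Figure D4:**
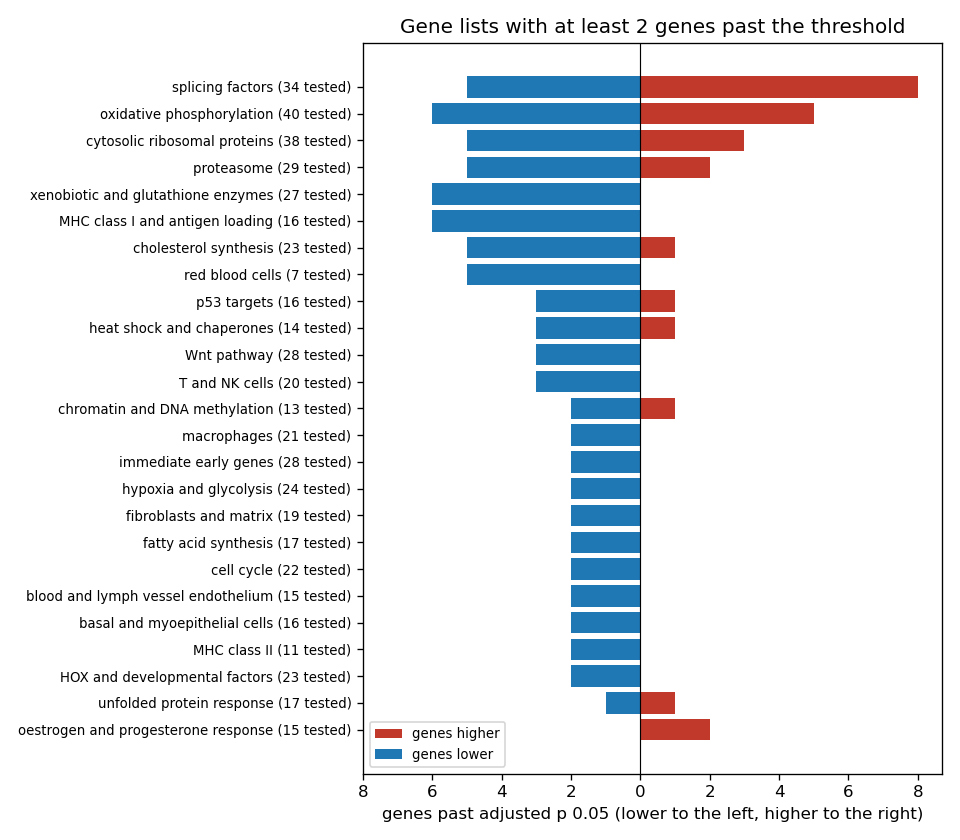
Number of genes past the adjusted threshold of 0.05 in each gene list with at least 2 such genes (x axis; lower to the left in blue, higher to the right in red), with the number tested beside each name. Splicing factors had the most genes higher (8), and most other lists had more genes lower than higher.

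The largest differences of all were carried by some of the letter-coded carcinomas. Hpx, the haem-binding plasma protein hemopexin, was at -4.79 in carcinoma 11, 3.95 in carcinoma 12 and 7.29 in carcinoma 13, against -6.75 to -0.78 in number-coded carcinomas, a difference of 6.62 ± 1.79 (adjusted p = 0.0212). Fgb, the fibrinogen beta chain gene, was at -8.33, 0.15 and 2.57 against -8.55 to -5.41 (difference 5.55 ± 1.52). Both were high in carcinomas 12 and 13 and within the number-coded range in carcinoma 11. Ahsg, the plasma protein fetuin-A, was at -4.99, 1.93 and -2.99 against -7.67 to -3.37 (difference 3.76 ± 1.12). Tff3, a secreted trefoil peptide gene, was at -6.42, 5.45 and -2.17 against -7.53 to -5.26 (difference 5.47 ± 1.55), so its rise rests mostly on carcinoma 12.

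None of Hpx, Fgb, Ahsg and Tff3 passed without carcinoma 12, without carcinoma 13 or with slide as a block, and Ahsg and Tff3 did not pass with normexp. Gland 6 was at 3.50 for Hpx against -3.36 to 0.25 in glands 1 to 5, and at -1.07 for Fgb against -7.18 to -4.47. The other fibrinogen chains, named after their values were seen, did not pass: Fgg was at -2.48, 1.42 and 3.80 against -5.66 to 1.52 (adjusted p = 0.101), and Fga at -8.95, -8.30 and -3.78 against -8.81 to -5.40.

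**Figure D5:**
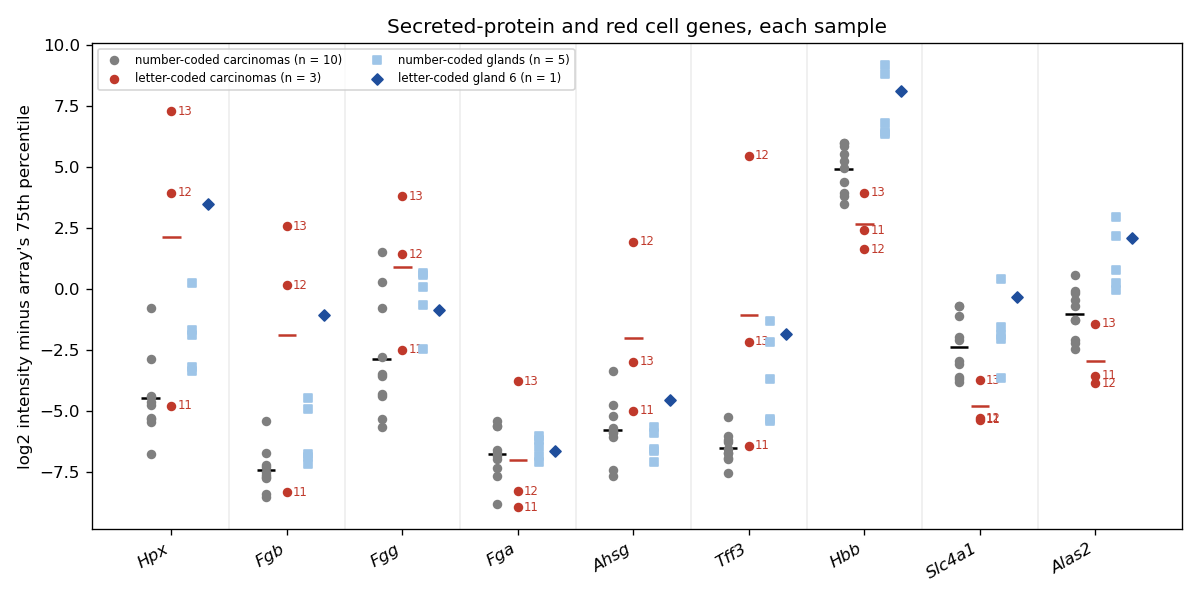
Level of secreted-protein and red cell genes, in log2 intensity minus the array's 75th percentile (y axis), with 1 point per sample, the letter-coded carcinomas labelled by their number and bars at the means of the carcinoma series. For Hpx and Fgb, carcinomas 12 and 13 stand above all number-coded carcinomas and carcinoma 11 among them.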

How the data were processed

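Total RNA of 19 samples was hybridised to Agilent 1-colour (Cy3) arrays, and the submitters' processing notes name Agilent Feature Extraction (version 10.7.3.1). Each spot's intensity after background subtraction, with quality flags, is held in the scanner files per the file headers. The authors also deposited a table of log2 values, which followed the scanner values with a correlation of at least 0.998 and served as an alternative. Of 58717 spots that are no controls, those marked as outliers (403 to 1069 per array) were treated as missing, and 0 were saturated. The log2 intensity was set relative to each array's 75th percentile, and replicate spots were averaged by probe. Gene names came through the RefSeq accession (18005 of 30367 probes had a symbol). Probes were kept when well above background on at least 3 of 13 carcinoma arrays (at least 0.5 of a probe's spots), and the brightest probe stood for a gene. No positions are given, because the array design and the reference gene list use different rat genome builds.

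Letter-coded minus number-coded carcinomas were compared in R 4.3.3 by limma (version 3.58.1, moderated variances that follow intensity, 2-sided, Benjamini-Hochberg over 13525 genes, threshold 0.05), and the procedure was tested on simulated data. The number of arrays limits the precision. Single array measures were compared by exact permutation. Members, 38 gene lists and the naming rule were chosen with earlier results of these data known, including that the code series separate, so the p-values are not independent evidence of that. The rule names, per direction, the 12 largest non-overlapping changes above background in the higher series, up to 3 genes with a bound, 5 shared with gland 6, up to 2 per list, and Esr1, Pgr, Erbb2, Krt8, Krt14, Fos, Cdkn1a and Ezh2. Normexp (offset 50) used the median spot and background signals, since mean spot signals were not used here. Other alternatives were scaling, filters, probe choice, variance settings, slide, scan day, brightness and leaving out each array; 3 were added after seeing the data (all probes, spike-in level, without carcinomas 7 and 13). Values of some single genes are not reported here.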

Additional observations from a re-analysis of the deposited data

Results flagged for a closer look

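Named genes and array measures were checked for a sample far from the rest of its group, among the 10 number-coded carcinomas and among glands 1 to 5. By chance about 1 in 20 groups would be picked out. Of 246 groups of named genes 11 were, no more than that share, so the genes below may be chance picks. Carcinoma 7 stood apart in array quality: its 75th percentile was 485 (next 866) and 62.3% of its spots were well above background. It was also the lowest for Krt14, at -2.88 (next 1.36), and the highest for Nr3c1, at -1.39 (next -2.64). Without carcinoma 7 the letter minus number difference of Krt14 was -0.23 in place of 0.34. Carcinoma 8 was the highest for Csf1r (-0.61) and RT1-DMa (2.39). Carcinoma 2 was the highest for Lamb3 (3.49), and carcinoma 3 the lowest for Gfap (-5.13). Letter-coded carcinomas were not part of this check. Carcinoma 13 had the lowest mean of negative control spots of any array, at -10.8 (next -6.56, gland 6). It had 1028 outlier spots, against 608 and 646 in carcinomas 11 and 12, though number-coded carcinoma 3 had 1069. In carcinoma 13, 72.0% of spots were well above background, against 78.7% and 80.1% in carcinomas 11 and 12. Without carcinomas 7 and 13, 437 genes were higher and 1197 lower.

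Among the glands, gland 5 was the highest for Cym (3.44), Glra2 (4.59) and Polk (-0.45), genes that were higher in the letter-coded carcinomas. Gland 3 was the highest for Cldn5 (0.30) and Aldoa (5.18), and gland 1 had the highest share of spots well above background (77.2%).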

How the results depend on the processing

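No paired analysis was possible because letter-coded and number-coded carcinomas share no replicate number. Against 625 genes higher and 1822 lower, array weights gave 1180 and 2747, slide as a block 100 and 369, slide 3 alone 0 and 0 (2858 at an unadjusted p under 0.05), and the spike-in covariate, whose values do not overlap between the series, 0 and 0 (1715 unadjusted). A filter for probes well above background on all 13 carcinoma arrays gave 1134 lower and tests fewer genes, and leaving out carcinomas 7 and 13 gave 1197 lower. Leaving out 1 carcinoma gave 270 to 756 higher and 994 to 2146 lower. Counts in both directions stayed within 1.5 times of the reported ones with normexp, quantile, median centring, no filter, kept outlier spots, the deposited table, mean of probes, no variance trend, scan day (as a block or day 1 alone), brightness and all 19 arrays. Gland 6 lay above for 67.4% of higher genes, against 23.6% of all genes. Glands of scan day 1 alone gave 72.6% against 27.9%, and leaving out 1 gland 68.5 to 72.7% against 24.6 to 29.7%. It lay below for 38.6% of lower genes, against 21.8% of all genes. Normexp gave 43.6% against 18.1%, and quantile 55.4% against 26.4%. Scan day 1 glands gave 51.7% against 29.3%, and leaving out 1 gland 39.4 to 44.9% against 23.1 to 25.6%. Fewer comparison glands can only keep or raise such counts, so those rises are no support. Slide 3 holds no number-coded gland, so that comparison was not run. Of 105 named genes past the threshold, 51 passed whichever carcinoma was left out, 39 with slide as a block and 0 within slide 3 alone. The sign, which says little of the calls, was kept in every setting by 102; the spike-in covariate turned Fbn1 (0.0089), Mrc1 (0.19) and Cdkn1a (0.77). Among genes not past it, the spike-in covariate turned Esr1 (-1.48), Erbb2 (-0.23), Krt14 (-1.68) and Ezh2 (0.68), and slide as a block, equal to slide 3 alone, turned Camp (-0.27), Pgr (0.13) and Krt14 (-0.67). Esr1 was -0.15 with normexp, Pgr 0.032 with quantile and 0.045 with median centring, and Erbb2 -0.33 with the mean of probes. Krt14 was -0.033 with array weights, -0.66 with scan day as a block or day 1 alone, -1.26 with brightness and -0.31 without carcinomas 7 and 13. Fga was 0.69 with quantile, 0.15 with scan day as a block or day 1 alone and 0.060 with brightness. Leaving out 1 carcinoma moved Pgr over both signs, from -0.42 to 0.41, Krt14 from -0.23 to 0.55, Fos from -1.78 to 0.52 and Fga from -1.87 to 0.72. The cause of these changes was not tested. Signals near background limit the falls most: 4 of the 12 largest were well above background on all 13 carcinoma arrays, against 8 of the 12 largest rises.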

Other observations

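Olfactory receptor genes, singled out after their values were seen, were lower in the letter-coded carcinomas more often than they were higher: 156 of 572 fell (27.3%) and 13 rose (2.27%), with a median difference of -1.04. Over all genes 13.5% were lower and 4.62% higher. Of the 572, 567 lay in the dimmer 2 of 4 equal bins of all genes by level, where 17.9% and 12.9% of all genes were lower and 1.27% and 3.67% higher. Gland 6 did not share the direction, being below glands 1 to 5 for 33 of the 572, where 21.8% of all genes were. It lay above them for 118, near the 23.6% of all genes. Of 47 vomeronasal receptor genes, 3 rose and 3 fell.

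Probes without a gene name rose more often than named ones. Of 4112 probes known by a probe name, cluster or other sequence, 10.5% were higher, against 4.79% of 15977 probes with a RefSeq accession and symbol, and 15.5% and 14.6% were lower. Different probes of 1 gene often differed: of 2250 genes with several probes, 27 were higher in all their probes and 169 in some, 80 were lower in all and 444 in some, and 13 had probes that passed in opposite directions.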
